A study of Mus musculus with 864 samples.

Results

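Gabra2, Gabrg1 and Grik1 were followed in single cells picked from the mouse lumbar dorsal root ganglion, the cluster of sensory neuron cell bodies beside the spinal cord. Gabra2 and Gabrg1 encode the alpha2 and gamma1 subunits of GABA-A receptors, and Grik1 encodes GluK1, a subunit of kainate receptors. The 3 genes were chosen by name, not by a threshold on their values, and each was 1 of 23281 genes in the table once repeat rows were left out and numbered copies of a gene were summed. The wells were those described as holding a single cell, 799 in all, and 694 of them had 1000 or more genes above 0 and were kept. All mice were C57/Bl6, aged 6 to 8 weeks, and cells were dissociated with papain and collagenase/dispase and picked by hand into 96-well plates. Cells came from 5 preparations. The cooled ones were picked on a cooled stage in session C, from male mice (preparation 4, 26.5% of kept cells) and female mice (preparation 5, 10.8%). Those picked at room temperature were session A male (preparation 1, 30.8%), session A female (preparation 2, 6.48%) and session B male (preparation 3, 25.4%). The labels name no animal, so the preparation served as the replicate and p-values measure only the spread between these preparations.

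GABA-A receptors are chloride channels built as pentamers, usually of alpha, beta and gamma subunits, and the alpha and gamma members set how the channel responds to GABA and to drugs such as benzodiazepines. Sensory neurons hold much chloride, so GABA depolarises them, and the receptors on their central terminals take part in presynaptic inhibition in the spinal cord. Kainate receptors are glutamate-gated cation channels, and GluK1 is the subunit long known from the small-diameter neurons of sensory ganglia.

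Gabra2 and Gabrg1 are neighbours in the mouse genome. In the RefSeq annotation of GRCm38.p6 no other protein-coding gene lay between them on chromosome 5, and Cox7b2, Gabra4 and Gabrb1 followed beyond Gabra2. The promoters of both are shown because the start regions of these neighbours differ in base composition. A link between the start regions and the levels in the cells was not tested. Each runs from 250 bases before to 50 bases after the RefSeq start, both lie on the minus strand of GRCm38.p6 (a later build than the mm9 of the deposited table), and capitals mark CG dinucleotides. The Gabra2 window is chr5:71095800-71096099 and the Gabrg1 window is chr5:70842568-70842867.
Gabra2: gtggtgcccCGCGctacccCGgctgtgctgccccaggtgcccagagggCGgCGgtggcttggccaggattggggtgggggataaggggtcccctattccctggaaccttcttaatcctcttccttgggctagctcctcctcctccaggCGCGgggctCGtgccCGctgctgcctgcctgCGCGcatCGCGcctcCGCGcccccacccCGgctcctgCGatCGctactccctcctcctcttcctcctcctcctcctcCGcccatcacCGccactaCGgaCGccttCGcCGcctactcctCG
Gabrg1: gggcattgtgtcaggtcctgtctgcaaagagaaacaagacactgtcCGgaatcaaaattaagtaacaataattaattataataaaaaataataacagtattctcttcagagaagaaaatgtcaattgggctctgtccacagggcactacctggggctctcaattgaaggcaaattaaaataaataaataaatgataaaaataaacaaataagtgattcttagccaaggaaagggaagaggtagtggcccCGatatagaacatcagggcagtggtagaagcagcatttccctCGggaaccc
The Gabra2 window held 25 CG dinucleotides at 70% G and C, and 18.4% of 32851 promoters of the same length held as many or more. The Gabrg1 window held 3 at 38.3% G and C, and 76.7% of promoters held as many or more. The letters TATAAA, searched on both strands, were in neither window and in 13.6% of all promoters. Grik1, on chromosome 16, had no entry in the promoter table.

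Cells were grouped without any receptor gene: 2 clusterings were made, each on the genes of 1 side of a random split, with the receptor lists left out of both. A cell kept a class where both gave the same one (95.2% of cells). Clusters were named from marker lists. NF-like cells (neurofilament-rich, myelinated touch and position neurons) were 21% of the 694 kept cells, NP-like cells (nonpeptidergic nociceptors and itch neurons) 22.8%, PEP-like cells (peptidergic nociceptors) 9.37% and TH-like cells (tyrosine hydroxylase-positive low-threshold C fibres) 36%. Every marker of the NF-like (10 of 10), NP-like (10 of 10) and TH-like (7 of 7) lists was higher on average in its own class than in the other neurons, as were 7 of 8 PEP-like markers, all but Smr2. These markers stayed in the clustering and gave the names, so the counts describe the classes and do not test them. A further 42 cells were fibroblast-like and 33 stayed without a class. PEP-like cells came from 4 preparations, since preparation 2 gave none. Median depth was 15421, 15597, 198657, 1526080 and 2573230 reads per cell in preparations 1 to 5, so that 1 read was worth a median of 64.8, 64.1, 5.03, 0.655 and 0.389 RPM, the deposited unit of reads scaled to the total of each well. A cell is called positive at 10 RPM or more, which in preparations 1 and 2 means 1 read. Fibroblast-like cells, none of which came from session A, were set beside the neurons as a non-neuronal background. They were positive for Gabra2 in 2 of 42, for Gabrg1 in 0 of 42 (exact 95% interval up to 8.41%) and for Grik1 in 7 of 42. Their median depth was 168366 reads, against 79428 reads in NF-like, 236704 in TH-like, 112850 in NP-like and 47606 in PEP-like cells. This class was not uniform. Its 6 fibroblast markers had a median sum of 2723 RPM, from 0 to 21374 RPM by preparation. Its 6 satellite glia markers, 5 of them with a median of 0, had a median sum of 827 RPM (6.43 to 26128 by preparation). The background is thus not free of glial transcripts. The 32 empty or medium wells held 1, 0 and 16 reads of Gabra2, Gabrg1 and Grik1.

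Gabrg1 was high in NF-like neurons and close to absent from the other classes. In preparations 1 to 5 the mean over NF-like cells was 44.1, 171.3, 45.6, 7.81 and 58.1 RPM. The means were 1.04, 0, 0.790, 0 and 0 RPM in NP-like cells and 2.53, 0, 0.939, 0.0814 and 0.0375 RPM in TH-like cells. PEP-like cells had 0, 18.2, 1.31 and 1.08 RPM in preparations 1, 3, 4 and 5, and a single cell at 441 RPM carried 93.1% of the sum in preparation 3. NF-like cells were above each other class in 5 of 5 preparations. In preparation 5, 2 of 7 NF-like cells had a read and 1 of them carried 80.5% of the sum. The lowest NF-like mean, in preparation 4, was above every NP-like and TH-like mean. Each class was then set against the mean of the other 3 with limma on log2(mean RPM + 5), with preparation as a block and Benjamini-Hochberg adjustment over 9965 genes. On that scale, which understates folds of low genes, and with a threshold of 0.05 on the adjusted p, Gabrg1 was 2.99 ± 0.42 higher in NF-like cells than in the rest (SE, 19 class means, adjusted p = 7.98e-06, limma). Of all genes tested, 14.4% passed in that contrast in either direction.

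Within the NF-like class Gabrg1 was detected in some cells and not in others, and in preparations 1 and 2 a level below that of 1 read was not detectable in a cell. It was positive in 61 NF-like cells (41.8% of the class, exact 95% interval 33.7 to 50.2, counting error only), against 3 NP-like (1.90%), 3 PEP-like (4.62%) and 3 TH-like cells (1.20%). The positive NF-like cells had a median of 94 RPM and the highest reached 1049 RPM. In preparations 1 to 5 the positive share was 40.4%, 66.7%, 48.8%, 14.3% and 28.6% of NF-like cells, lowest in the 2 cooled preparations of session C. With every cell thinned to 3000 reads, which removes the difference in depth, 16 NF-like cells (11%) kept a Gabrg1 read, against 1 NP-like, 0 PEP-like and 1 TH-like cell.

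The lower level of Gabrg1 in NP-like cells, -1.36 ± 0.42 on the log2 scale (adjusted p = 0.0331, limma), was past the threshold among 11.4% of genes called in that contrast. It was no longer past it without preparation 1, 2, 3 or 5, where the adjusted p by limma ran from 0.0715 to 0.151. In TH-like cells the difference was -1.25 ± 0.42 (adjusted p = 0.0629, limma; 8.44% of genes called) and in PEP-like cells -0.38 ± 0.46 (adjusted p = 0.651, limma; 8.91% called). The median of all genes in the PEP-like contrast was itself -0.22, against 0.05 in the NF-like, 0.10 in the TH-like and 0.01 in the NP-like contrast. In the order of levels NF-like cells stood first and above PEP-like cells (2.52 ± 0.55, adjusted p = 0.00293, limma; 11.9% of genes called between these classes). The NF-like class was also above TH-like cells by 3.18 (adjusted p = 6.03e-05, limma; 11.6% called). PEP-like, TH-like and NP-like cells did not differ from their neighbours beyond their spread: PEP-like minus TH-like was 0.66 ± 0.55 (adjusted p = 0.483, limma) and NP-like minus TH-like was -0.08 ± 0.51 (adjusted p = 0.967, limma).

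**Figure D1:**
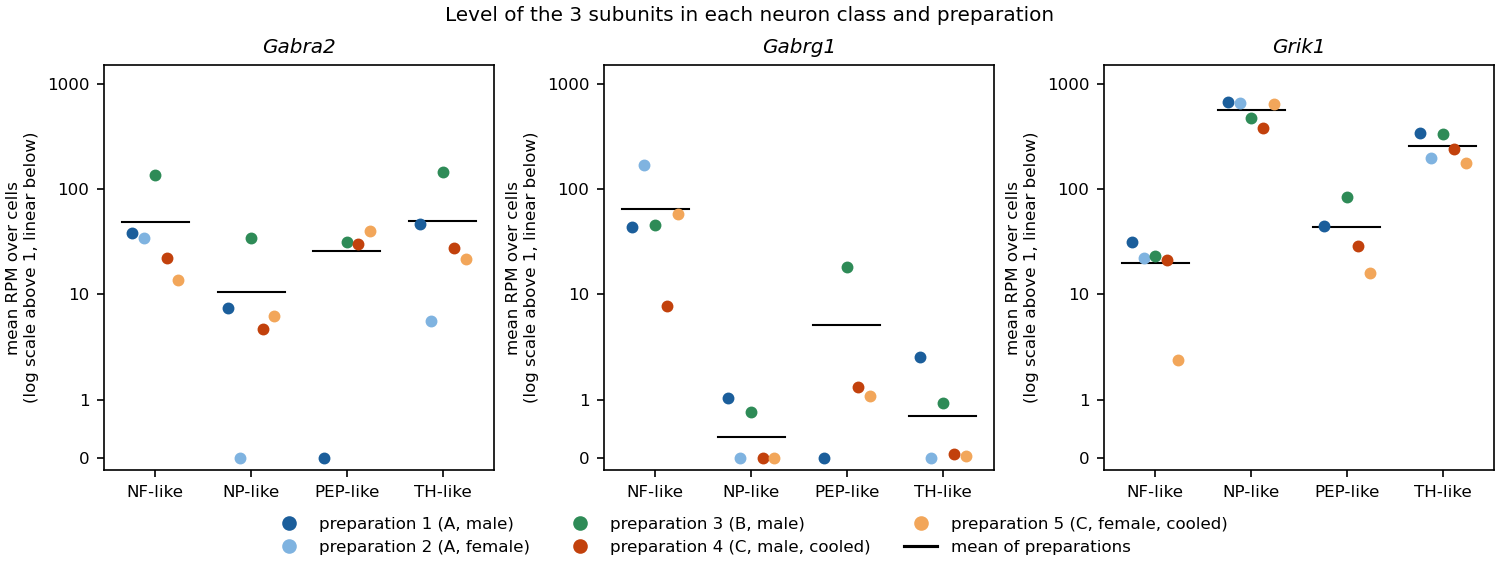
Mean RPM of Gabra2, Gabrg1 and Grik1 (vertical axis, logarithmic above 1 RPM) in 4 neuron classes (horizontal axis). Each point is 1 preparation with 3 or more cells of the class and each bar the mean of preparations. Gabrg1 points of NF-like cells lie between 7.81 and 171.3 RPM, Grik1 points of NP-like cells between 384 and 672 RPM, and the Gabra2 points of preparation 3 stand above the others in NF-like, TH-like and NP-like cells.

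Markers of satellite glia were looked at beside Gabrg1, since these cells wrap sensory neurons. The summed level of 3 glial genes (Fabp7, Apoe and Kcnj10) had a median of 0 RPM in the 61 Gabrg1-positive NF-like cells and 0.985 RPM in the 85 negative ones, and 11 and 17 of those cells reached 100 RPM. The whole list of 6 satellite glia markers, which adds Glul, Ednrb and Ptprz1, had a median sum of 168.4 RPM in the Gabrg1-positive and 110.5 RPM in the negative NF-like cells. By class the median sum was 140.9 RPM in NF-like (32.4 to 270.4 by preparation), 157.2 in TH-like (75.8 to 254.5), 249.7 in PEP-like (219.7 to 326.3) and 94.6 RPM in NP-like cells (80.1 to 125.8). Of the 6 markers, 5 had a median of 0 in each class except PEP-like cells, where 4 did. The part of the whole list in the Gabrg1 level was not tested. Leaving out all cells at 100 RPM or more of the 3 genes, among them 28 NF-like cells, left Gabrg1 higher in NF-like cells by 2.80 ± 0.42 (adjusted p = 3.39e-05, limma).

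Gabra2 was detected in all 4 neuron classes and its level differed between preparations as well as between classes. In preparations 1 to 5 the mean was 38.4, 34.5, 136.1, 22.4 and 13.9 RPM in NF-like cells. In TH-like cells it was 46.5, 5.64, 145.2, 27.4 and 21.9 RPM. NP-like cells had 7.41, 0, 34.3, 4.69 and 6.30 RPM. PEP-like cells had 0, 31.7, 30.3 and 40.3 RPM in preparations 1, 3, 4 and 5. A single cell carried 51.3%, 71.2% and 79.9% of the PEP-like sum in preparations 3, 4 and 5. In NP-like cells it was 46.4%, 22.7%, 72.9% and 64% in preparations 1, 3, 4 and 5. The share of the top cell reached 58.3% in NF-like cells (preparation 5) and 100% in TH-like cells (preparation 2). Preparation 3 was highest in NF-like, TH-like and NP-like cells, and the ranges of all 4 classes overlapped. NP-like cells were below the mean of the other classes in 5 of 5 preparations.

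None of the 4 class contrasts of Gabra2 passed the threshold. The difference was 1.01 ± 0.45 in NF-like cells (adjusted p = 0.151, limma), 0.80 ± 0.45 in TH-like cells (0.341), -0.46 ± 0.50 in PEP-like cells (0.605) and -1.35 ± 0.45 in NP-like cells (0.0532). Without preparation 5 the NF-like difference was 1.401 and passed (adjusted p = 0.0472, limma). In the order of mean levels (49.3 ± 55.6 RPM in TH-like, 49.1 ± 49.7 in NF-like, 25.6 ± 17.6 in PEP-like and 10.5 ± 13.6 in NP-like cells, SD, n = 5 preparations, 4 for PEP-like) no neighbours differed beyond their spread: NF-like minus TH-like was 0.16 ± 0.55 (adjusted p = 0.927, limma), NF-like minus PEP-like 1.10 ± 0.59 (0.237) and NP-like minus PEP-like -0.67 ± 0.59 (0.533; 8.97% of genes called). Of the pairs further apart, NF-like cells were above NP-like cells by 1.77 ± 0.55 (adjusted p = 0.0256, limma), where 15.7% of genes passed. For NP-like minus TH-like cells the difference was -1.61 ± 0.55 (adjusted p = 0.0726, limma; 8.16% called).

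In single cells Gabra2 was positive in 79 NF-like (54.1%, exact interval 45.7 to 62.4), 78 TH-like (31.2%, 25.5 to 37.3), 13 PEP-like (20%, 11.1 to 31.8) and 21 NP-like cells (13.3%, 8.42 to 19.6). The PEP-like and NP-like shares are to be read beside the 4.76% of fibroblast-like cells (exact interval 0.582 to 16.2). Session A cells are in the neuron shares and not in this background. In sessions B and C alone 28.9% of PEP-like and 19.1% of NP-like cells were positive. Positive TH-like cells held more each, with a median of 142.3 RPM, against 87.2 RPM in positive NF-like cells. The highest cell was TH-like, at 810 RPM. In preparation 3 the gene was positive in 81.4% of NF-like and 67.2% of TH-like cells, against 38.9% to 43.9% of NF-like and 7.69% to 22.5% of TH-like cells in the other preparations. Gabra2-positive NF-like cells were also deeper, with a median of 366813 reads against 48490 reads in the negative ones, and had a median of 10.7 against 0 RPM of the glial markers. The NF-like difference was 0.78 (adjusted p = 0.628, limma) with all cells thinned to 3000 reads and 1.16 (adjusted p = 0.139, limma) without the cells at 100 RPM or more of glial markers. After thinning to 3000 reads the shares were 15.2%, 12%, 6.25% and 2.53% in NF-like, TH-like, PEP-like and NP-like cells.

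**Figure D2:**
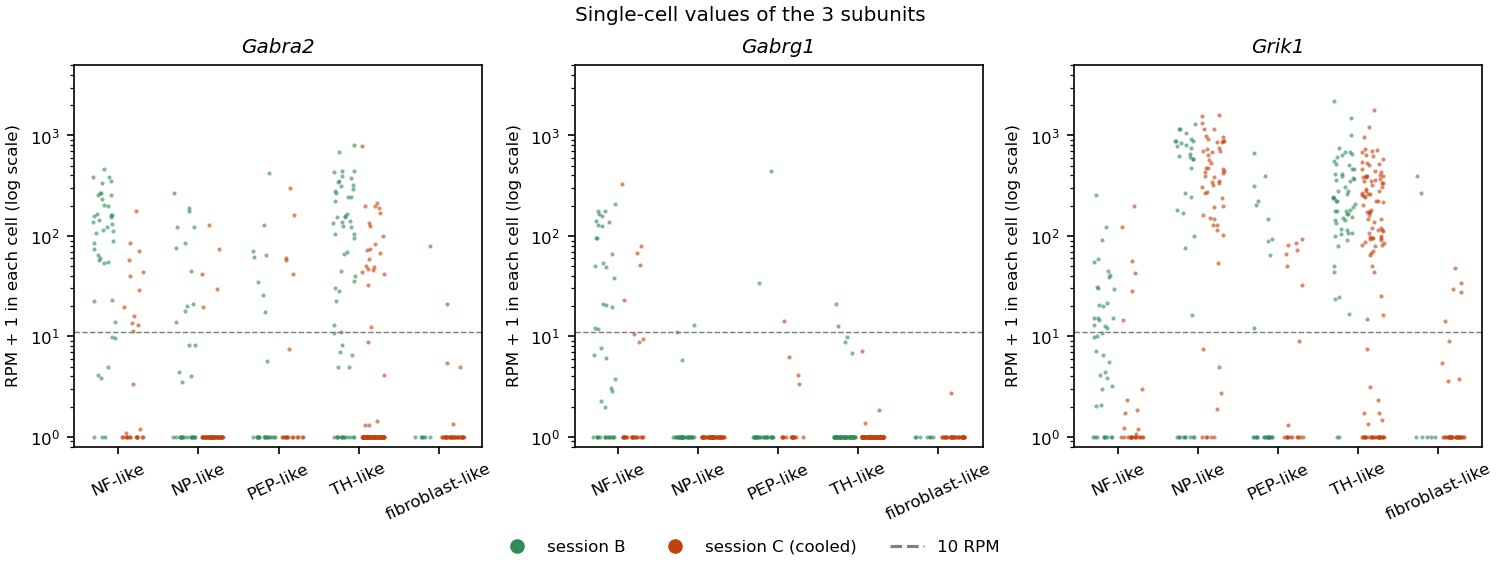
RPM + 1 in every cell (logarithmic vertical axis) of sessions B and C for the 3 genes, by class (horizontal axis), with fibroblast-like cells at the right. Each point is 1 cell, points at the bottom are cells with no read, and the dashed line is 10 RPM. Gabrg1 points above the line are nearly all NF-like, and Grik1 points of NP-like and TH-like cells lie mostly between 100 and 1000 RPM.

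Grik1 was the most abundant of the 3 genes and ran opposite to Gabrg1: it was high in NP-like and TH-like neurons and low in NF-like neurons. In preparations 1 to 5 the mean was 672, 658, 469, 384 and 641 RPM in NP-like cells. It was 338.4, 196.7, 332.2, 238.2 and 178.6 RPM in TH-like cells. PEP-like cells had 44.9, 85, 28.8 and 16.2 RPM in preparations 1, 3, 4 and 5. NF-like cells had 31.3, 22.2, 23.2, 21.3 and 2.36 RPM. NP-like cells were above every other class, and NF-like cells below every other class, in 5 of 5 preparations. The lowest TH-like mean was above the highest PEP-like mean, and the lowest NP-like mean above the highest TH-like mean, while the ranges of PEP-like and NF-like cells overlapped.

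Grik1 passed the threshold in all 4 class contrasts. It was higher in NP-like cells by 3.16 ± 0.28 on the log2 scale (adjusted p = 7.19e-09, limma) and in TH-like cells by 1.65 ± 0.28 (1.65e-04). It was lower in NF-like cells (-3.04 ± 0.28, adjusted p = 8.68e-09, limma) and in PEP-like cells (-1.77 ± 0.31, 4.55e-04). In the order of levels, NP-like cells were above TH-like cells by 1.14 ± 0.34 (adjusted p = 0.0325, limma), and PEP-like cells were below TH-like cells (-2.56 ± 0.36, adjusted p = 2.41e-05, limma; 10.1% of genes called). NF-like minus PEP-like cells was -0.95 ± 0.36 and did not pass (adjusted p = 0.089, limma).

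More than 8 in 10 NP-like and TH-like neurons held Grik1. It was positive in 81.6% of NP-like (exact interval 74.7 to 87.3) and 82.4% of TH-like cells (77.1 to 86.9), against 37.7% of NF-like (29.8 to 46.1) and 30.8% of PEP-like cells (19.9 to 43.4). The last 2 shares are to be read beside the 16.7% of fibroblast-like cells (exact interval 6.97 to 31.4). That background holds no session A cell, while both shares do. Positive cells had a median of 580 RPM in NP-like, 253 RPM in TH-like, 90.5 RPM in PEP-like and 39 RPM in NF-like cells, so both the share and the amount per positive cell were higher in NP-like and TH-like neurons. After thinning to 3000 reads 62% of NP-like and 47.2% of TH-like cells kept a read, against 9.66% of NF-like and 9.38% of PEP-like cells.

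The classes are mixtures, and the members were next compared within them. NP-like cells were split at 100 RPM of Mrgprd, the receptor of the main nonpeptidergic nociceptors, with 89 cells at or above it and 58 of the NP-like cells within a factor of 2 of it on either side. Grik1 in cells above the threshold averaged 887, 917, 801, 522 and 656 RPM in preparations 1 to 5, against 364, 77.5, 173.95, 254 and 605 RPM in cells below it. It was higher in the Mrgprd-rich cells in 5 of 5 preparations, by 1.61 ± 0.37 on the log2 scale. That did not pass over all genes (adjusted p = 0.448, limma), and an exact two-sided permutation test over the 5 preparations gave p = 0.0625, the smallest it can give. In this comparison 0 of 9054 genes (0%) passed by limma, 632 had an unadjusted p under 0.05, and no other tool was run. With Mrgprd split at 50 RPM the difference was 2.71 (adjusted p = 0.00155, limma). Gabra2 averaged 10.6 ± 16.7 RPM in the Mrgprd-rich cells and 12.3 ± 12.54 RPM in the others (SD, n = 5), a difference of -0.27 ± 0.62 (adjusted p = 0.931, limma), and Gabrg1 was under the filter on low values.

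Other nonpeptidergic subsets, described without a test, held less Grik1. Among NP-like cells with 100 RPM or more of Mrgprd, 88 of 89 were Grik1-positive, with a median of 633 RPM. Among the 19 cells with Mrgpra3 at 100 RPM or more, an itch receptor, 8 were positive and the median was 0.878 RPM. Among the 11 cells with Nppb or Sst at 100 RPM or more, peptides of other itch neurons, 2 were positive and the median was 0 RPM. No cell had both Mrgprd and Mrgpra3 at that level and 2 cells had both Mrgprd and Nppb or Sst. The 42 NP-like cells with none of these genes held Grik1 in 33 cells, with a median of 323 RPM.

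NF-like cells were split at 100 RPM of Pvalb, a calcium-binding protein of proprioceptors, with 64 cells at or above it and 15 within a factor of 2. Gabrg1 averaged 34.9, 250, 52.7, 9.75 and 135.7 RPM in the Pvalb-rich cells of preparations 1 to 5, against 53, 72.4, 40.9, 7.04 and 0 RPM in the others. It was higher in the Pvalb-rich cells in 4 of 5 preparations, by 1.32 ± 0.63, and did not pass (adjusted p = 0.325, limma). Preparation 4 set 6 Pvalb-rich cells against 15 others, and preparation 5 set 3 against 4. Grik1 differed by 0.78 ± 0.57 (adjusted p = 0.552, limma) and Gabra2 by -0.64 ± 0.52 (adjusted p = 0.595, limma). In this comparison 3.78% of 9341 genes passed.

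NF-like cells below the Pvalb threshold were described further by Calb1, another calcium-binding protein, and by Htr3a, an ion channel gated by serotonin. The 26 cells with Calb1 at 100 RPM or more were the richest in Gabra2, with 21 positive and a median of 122.9 RPM, and 15 were positive for Gabrg1. Of 38 cells with Htr3a at 100 RPM or more, 21 were positive for Gabra2 (median 17.1 RPM) and 14 for Gabrg1. Of the 64 Pvalb-rich cells, 26 were positive for Gabra2 and 31 for Gabrg1. These sets share preparations and partly share cells, and no test was made between them.

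**Figure D3:**
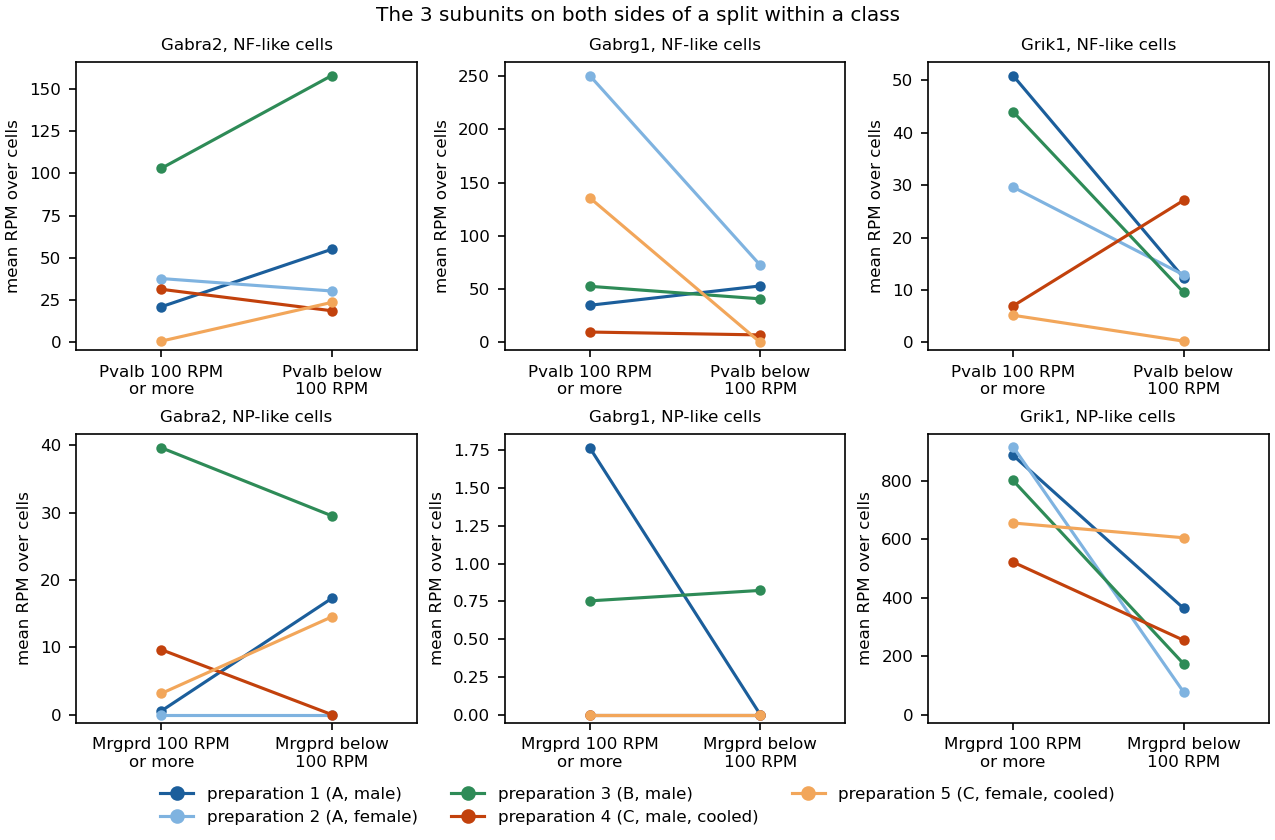
Mean RPM over cells (vertical axes) of the 3 genes in NF-like cells split by Pvalb (top) and in NP-like cells split by Mrgprd (bottom), with the gene-rich cells at the left. Each line joins the 2 sides of 1 preparation. Grik1 is higher on the Mrgprd-rich side in 5 of 5 preparations, and Gabrg1 is higher on the Pvalb-rich side in 4 of 5.

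Combinations of the 3 genes in one cell were counted in sessions B and C. There 1 read was worth a median of 5.03, 0.655 and 0.389 RPM over the kept cells of preparations 3, 4 and 5. It is worth more in shallow cells, where a level below that of 1 read is not detectable. In preparation 3, 26 PEP-like cells had a mean of 31.7 RPM of Gabra2 from 45 reads. The 43 NF-like cells had 136.1 RPM from 4743 reads. Single cells are not replicates, so the counts carry exact binomial intervals and no test. In NF-like cells, 18 of 71 held Gabra2 and Gabrg1 together at 10 RPM or more (25.4%, exact interval 15.8 to 37.1), with or without Grik1. Among the 26 Gabrg1-positive NF-like cells 18 were also positive for Gabra2, and 47 of all 71 NF-like cells were. The pair was found in 0 of 89 NP-like cells (up to 4.06%), 0 of 45 PEP-like cells (up to 7.87%) and 1 TH-like cell (0.602%). The sessions differed: the pair was in 18 of 43 NF-like cells of session B and in 0 of 28 of session C, where Gabra2 was positive in 12 cells and Gabrg1 in 5. Within session B, 18 of 21 Gabrg1-positive and 35 of all 43 NF-like cells held Gabra2. At 1 or more reads, the looser count, 32 of 71 NF-like cells held both, among them 32 of the 37 with Gabrg1. All 3 genes together were positive in 8 of 71 NF-like cells (11.3%) and at 1 or more reads in 24 of 71 (33.8%).

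TH-like and NP-like cells combined the genes differently. Grik1 with Gabra2, and no Gabrg1, was the state of 57 TH-like cells (34.3%, exact interval 27.2 to 42.1), and Grik1 alone of 75 (45.2%, 37.5 to 53.1). Of the 61 Gabra2-positive TH-like cells 58 held Grik1 (95.1%), against 80.7% of all TH-like cells. Within session B it was 39 of 39, against 56 of all 58 (96.6%), and within session C 19 of 22 (86.4%), against 72.2% of all. Grik1 and Gabra2 were together in 39 of 58 TH-like cells of session B (67.2%) and in 19 of session C (17.6%). Different clusters hold most TH-like cells of the 2 sessions. In the first clustering the cluster led by Gm7271, Fxyd6 and Wfdc2 had 3 cells of preparation 3, 61 of preparation 4 and 24 of preparation 5, and the one led by Rprm, Fam19a4 and Th had 42, 5 and 1. Grik1 alone was found in 54 of 89 NP-like cells (60.7%, 49.7 to 70.9) and Grik1 with Gabra2 in 15 (16.9%, 9.75 to 26.3). At 1 or more reads, Grik1 with Gabra2 was in 39.2% and Grik1 alone in 41.6% of TH-like cells, and in NP-like cells the shares were 20.2% and 61.8%. PEP-like cells most often held none of the 3, in 20 of 45 (44.4%, 29.6 to 60.0), compared with 10 of 71 NF-like, 16 of 89 NP-like and 17.5% of TH-like cells. They were also the shallowest neurons, with a median of 47606 reads over all sessions, against 79428 reads in the next class. A cell with none of the genes may thus hold a level below that of 1 read. The part of depth in this share was not tested.

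**Figure D4:**
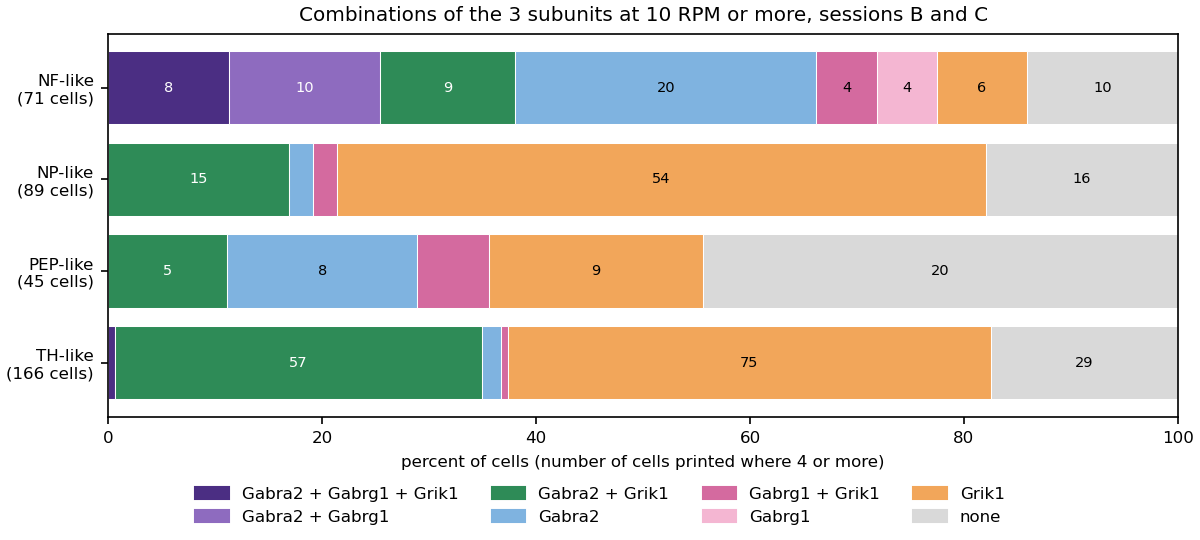
Percent of cells (horizontal axis) of each class in sessions B and C by which of the 3 genes were at 10 RPM or more, with the number of cells printed in segments of 4 or more. Gabra2 with Gabrg1 appears as the 2 left segments of NF-like cells (8 and 10 of 71), Gabra2 with Grik1 as 57 TH-like cells and Grik1 alone as 54 of 89 NP-like cells.

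Other subunits were read in the same cells. Gabrb2, a beta subunit, was positive in 36 of 71 NF-like cells of sessions B and C (50.7%, exact interval 38.6 to 62.8), in 17 TH-like cells (10.2%) and in 0 of 89 NP-like cells. It was found in 26 of the 47 Gabra2-positive and 16 of the 26 Gabrg1-positive NF-like cells. In TH-like cells 5 of 61 Gabra2-positive cells held Gabrb2 and 16 held Gabra3, another alpha subunit. For Grik1, 43 positive NP-like cells (60.6%) and 82 positive TH-like cells (61.2%) held no other kainate subunit at 10 RPM. Grik4, which encodes a subunit that needs a partner such as GluK1 to form a channel, was the most frequent of the others, in 25 and 31 of the Grik1-positive cells.

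The rest of the GABA-A family was read from a list, of which 16 subunits are reported here. The filter on low values was passed by 4 of them, the members Gabra2 and Gabrg1 with Gabra3 and Gabrb2. A filter of this kind keeps genes that are high in some class, so the counts are a description. In NF-like cells 3 of the 4 were higher and 0 lower (Gabra3, Gabrb2 and Gabrg1), where 14.4% of all genes passed in either direction, with a median difference of 1.86, against 0.05 for all genes. In NP-like cells 0 were higher and 2 lower (Gabra3 and Gabrg1, where 11.4% of all genes passed; median -1.36, against 0.01). None passed in PEP-like cells (8.91% of all genes did; median -0.53, against -0.22) or in TH-like cells (8.44% did; median 0.27, against 0.10).

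Gabrb2 had 24.2, 29.3, 25.9, 34.6 and 34 RPM in NF-like cells of preparations 1 to 5, above every mean of the other classes, the highest of which was 12.97 RPM in TH-like cells. It was higher in NF-like cells by 2.37 ± 0.38 (adjusted p = 4.56e-05, limma). Gabra3 had 76.2, 13.5, 25.2, 14.3 and 104.8 RPM in NF-like cells, against 1.04, 0, 0.617, 1.49 and 12.7 RPM in NP-like cells of the same preparations. It was higher in NF-like than in NP-like cells in each of the 5 preparations, and the NF-like range overlapped that of TH-like cells (12.97 to 72.3 RPM). The NF-like mean of preparation 2 came from 1 of 18 cells. In preparation 5 reads were in 2 of 7 NF-like cells, and 1 was at 10 RPM or more. Within the NF-like class Gabra3 was higher in Pvalb-rich cells by 3.53 ± 0.59 (adjusted p = 0.00169, limma), where 3.78% of genes passed. Gabra3 was higher in NF-like (1.36 ± 0.44, adjusted p = 0.0365, limma) and lower in NP-like cells (-1.91 ± 0.44, 0.0036). With no filter on low values the NF-like difference of Gabra3 no longer passed (adjusted p = 0.0913, limma). For comparison Gabrg1 averaged 65.4 ± 62.1 RPM in NF-like cells (SD, n = 5). Reads come from the 5′ ends of transcripts, so RPM is not divided by length. The genome neighbours beyond Gabra2 were low: Gabra4 averaged 1.96 RPM or less and Gabrb1 4.02 RPM or less in each class.

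Of 7 kainate genes 6 passed the filter, and Grik1 was the only one to pass when a class was set against the rest. Medians over the 6 were -0.56 in NF-like, 0.18 in TH-like, -0.02 in PEP-like and 0.32 in NP-like cells. At their highest class mean Grik2 reached 13.8 RPM (NF-like), Grik4 15.3 RPM (NP-like), Grik5 12.8 RPM (TH-like) and Neto2, an auxiliary protein of kainate receptors, 32.7 RPM (PEP-like). Grik3 averaged 46.4 ± 61.7 RPM in PEP-like cells, and between single classes it was lower in NP-like than in PEP-like cells (-2.19 ± 0.64, adjusted p = 0.0309, limma). That call rests on few cells. In preparations 1, 3, 4 and 5 PEP-like cells had 0, 1.84, 131.4 and 52.5 RPM, with reads in 0, 3, 3 and 1 cells. NP-like cells of the same preparations had 1.74, 1.48, 0 and 0 RPM.

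**Figure D5:**
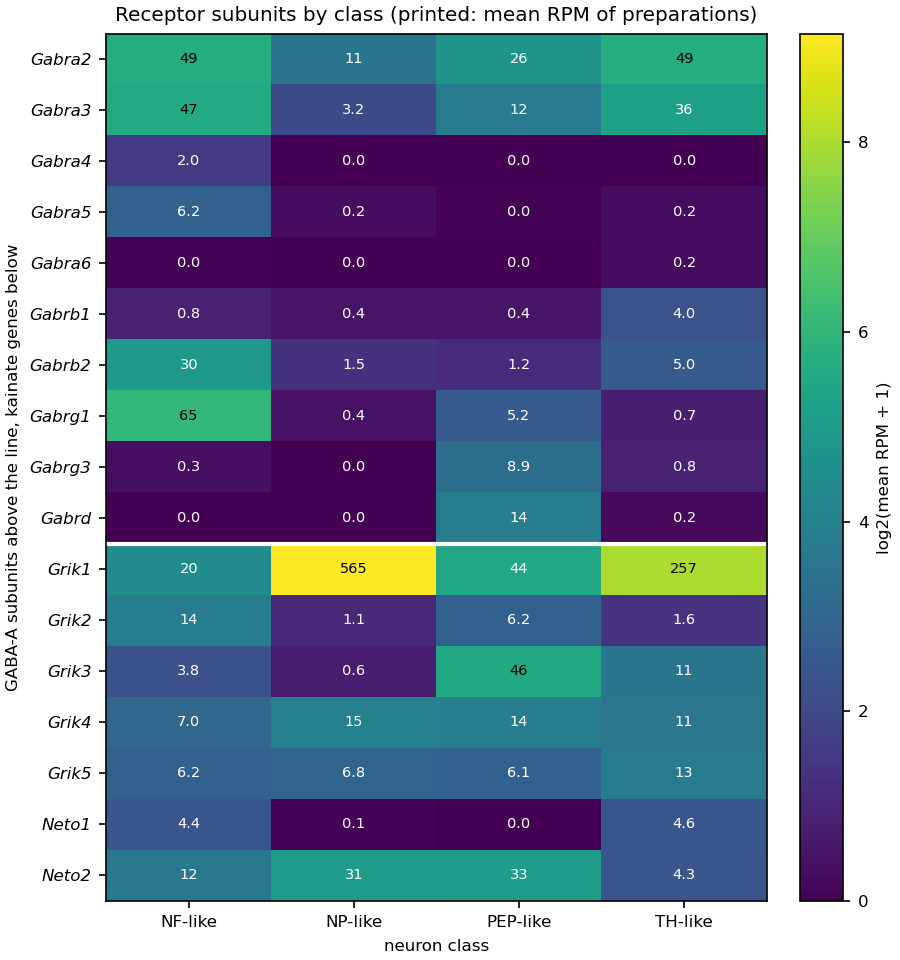
Mean RPM of preparations, printed in each cell and coloured as log2(mean RPM + 1), for 10 GABA-A subunits (above the white line) and kainate receptor genes (below) in 4 neuron classes. Gabrg1 stands out in the NF-like column at 65.4 RPM and Grik1 in the NP-like and TH-like columns at 565 and 257 RPM.

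Genes that handle GABA and chloride, and those of other glutamate receptors, were read for context. Of 11 AMPA and NMDA receptor genes 5 passed the filter, and Gria3 (2.12 ± 0.38, adjusted p = 1.87e-04, limma) and Gria4 (1.37 ± 0.40, 0.0173), AMPA receptor subunits, were higher in NF-like cells, where 14.4% of all genes passed. None of the 5 passed in NP-like, PEP-like or TH-like cells, where 11.4%, 8.91% and 8.44% of all genes did. Slc12a2, the chloride importer NKCC1, averaged 30.9 ± 13.3 RPM in NF-like cells, against 130 ± 68.4 RPM in NP-like, 186.2 ± 260 in PEP-like and 116.2 ± 39.3 RPM in TH-like cells, and was lower in NF-like cells (-1.67 ± 0.42, adjusted p = 0.00657, limma). Slc12a5, the chloride exporter KCC2, was at 0.00469 RPM or less. Abat, which breaks GABA down, was higher in NP-like cells (1.77 ± 0.41, adjusted p = 0.00423, limma) and lower in TH-like cells (-1.41 ± 0.41, 0.0296). Gad2, a GABA-making enzyme, was at 0 in every class. Gad1, the other such enzyme, averaged 2.31 ± 3.17 RPM in NP-like and 1.08 ± 1.42 RPM in NF-like cells, and 0 in PEP-like and TH-like cells. It was under the filter on low values. Lhfpl4, an auxiliary protein of synaptic GABA-A receptors, was higher in NF-like (1.09 ± 0.23, adjusted p = 0.00107, limma) and lower in PEP-like cells (-0.84 ± 0.25, 0.0351). Gabarapl1, a relative of the receptor-associated protein Gabarap, was higher in NF-like (0.71 ± 0.14, adjusted p = 4.01e-04, limma) and lower in TH-like cells (-0.47 ± 0.14, 0.0262), and Gabarap itself was lower in NF-like cells (-0.52 ± 0.16, 0.0265). Neither of the 2 GABA-B subunits passed when a class was set against the rest, and between single classes Gabbr1 was lower in PEP-like than in TH-like cells (-1.38 ± 0.40, adjusted p = 0.0294, limma). With no filter on low values, 5 of the calls of a class against the rest no longer passed by limma. They were Slc12a2 in NF-like (adjusted p = 0.0760, limma), Abat in TH-like (0.0798), Lhfpl4 in PEP-like (0.111), Gabarapl1 in TH-like (0.0563) and Gabarap in NF-like cells (0.114). The Gabbr1 call between single classes was not followed without the filter.

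The genes whose log2(mean RPM + 5) ran most like each member over the 19 class means were listed, as a description, since the points share libraries, preparations and depth. For Gabrg1 they were Esrrg (Pearson r = 0.932), a nuclear receptor, LOC433944 (0.926), Hs3st2 (0.926), a heparan sulfate sulfotransferase, Vstm2b (0.918) and P2rx6 (0.909), a subunit of ATP-gated channels. Esrrg averaged 36.8 RPM in NF-like cells and 0.572, 1.66 and 0.149 RPM in NP-like, PEP-like and TH-like cells. For Grik1 they were Tmem45b (0.931), Nedd4l (0.919), a ubiquitin ligase, Ms4a3 (0.917), Txn1 (0.908), thioredoxin, and Cadm1 (0.898), an adhesion molecule. Tmem45b averaged 585 RPM in NP-like and 324 RPM in TH-like cells, against 47.2 RPM in PEP-like and 8.42 RPM in NF-like cells. The genes most like Gabra2 reached a lower r: Ndufb4 (0.817), a subunit of respiratory complex I, Eif2b1 (0.816), a translation factor, Spop (0.772), an adaptor of ubiquitin ligases, Lrp11 (0.770) and Atp2b3 (0.767), a calcium pump. Between the members themselves r was 0.375 for Gabra2 with Gabrg1, -0.278 for Gabra2 with Grik1 and -0.665 for Gabrg1 with Grik1.

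The cooled preparations were compared with those at room temperature over the 3 classes present in all 5. Gabra2 averaged 18.2 and 14.0 RPM over these classes in preparations 4 and 5 (cooled), against 30.8, 13.4 and 105.2 RPM in preparations 1, 2 and 3. Gabrg1 averaged 2.63 and 19.4 RPM, against 15.9, 57.1 and 15.8 RPM. Grik1 averaged 214.7 and 274 RPM, against 347, 292 and 275 RPM. With sex as a covariate the differences were -0.58 ± 0.56, -0.70 ± 0.33 and -0.54 ± 0.30 on the log2 scale (adjusted p = 0.614, 0.288 and 0.364, limma), and none passed; 1.17% of 9703 genes did. Only 2 residual degrees of freedom were left, and cooling, session C and depth cannot be told apart.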

How the data were processed

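Single cells were picked by hand, and cDNA was tagged at the 5′ ends of transcripts, per the labels' protocol. Reads were aligned with Bowtie to mm9, per the submitters' processing notes. The deposited table holds RPM per well, made by the authors. In 841 of 864 wells whole read counts could be recovered from the deposited RPM values, with 99.5% of values whole within 0.1 read. A further 4 control wells hold only whole numbers in the deposited table and are treated as a score, with no level drawn from them, and 19 wells were not claimed. The 1217 rows of repeats were left out. No molecular identifiers were used, so intervals cover counting error only.

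Wells described as a single cell with 1000 or more genes were kept. Cells were clustered on each side of a random split of the genes (scanpy 1.11.5, Leiden resolution 1), without any gene of the receptor lists, and no doublet caller was run, since cells were picked under visual control. The planned resolution of 2 left more clusters without a name (84.3% of cells alike in both clusterings) and became an alternative, a change made before any class contrast was read. Genes outside the receptor lists were averaged by the clustering that lacked them. Means of 3 or more cells per class and preparation were tested with limma 3.58.1 (trend and robust) on log2(mean RPM + 5), with preparation as a block, for genes averaging at least 5 RPM. Adjusted p-values are Benjamini-Hochberg over all genes tested, with a threshold of 0.05. edgeR 4.0.16 on summed recovered reads was an alternative added after seeing the data, as was leaving out cells rich in glial markers. The fits were tested on simulated data. Combinations were counted at 1 or more reads and at 10 RPM, and intervals are Clopper-Pearson at 95%.

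The members and gene lists were chosen with earlier results of these data known. The named genes were the members, each GABA-A or kainate gene that passed in a class contrast or was the most abundant alpha, beta or gamma subunit, up to 3 passing genes per class from each other list, and the 5 genes most correlated with each member. Some genes that this rule names are not reported here, and list counts and glial sums leave them out. Gabrb1, Gabra4, Grik2 to Grik5, Neto2, Slc12a5, Gad1, Gad2 and the genes of the subsets were named outside that rule, after their values were seen. Wells with more than 1 cell entered no comparison.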

Additional observations from a re-analysis of the deposited data

Results flagged for a closer look

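In 3 of the 12 sets of preparation means tested (3 genes in 4 classes), 1 preparation stood far from the others by Dixon's test, which chance alone flags in about 1 in 20 sets. Gabra2 in NF-like cells reached 136.1 RPM in preparation 3, and Gabra2 in NP-like cells reached 34.3 RPM in the same preparation. Gabrg1 in PEP-like cells reached 18.2 RPM in preparation 3, nearly all of it from 1 cell of 26. What sets preparation 3 apart for Gabra2 was not tested.

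Wells holding more than 1 cell were in no comparison. At 10 RPM or more, 9 of 33 held Gabra2, 4 held Gabrg1 and 13 held Grik1, against 1, 0 and 5 of the 32 empty or medium wells, where the median depth was 1620 reads and 1 read already passes 10 RPM. The reads themselves were 7762, 6486 and 11642 in the wells with more than 1 cell, against 1, 0 and 16.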

How the results depend on the processing

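The higher Gabrg1 of NF-like cells and all 4 Grik1 class differences kept their direction and stayed past the threshold in the 17 alternatives run for each. These are contrasts of a class against the rest. Calls of members between single classes were not followed over the alternatives. Among them are Gabra2 in NF-like against NP-like cells and Grik1 in NP-like against TH-like cells. The lower Gabrg1 of NP-like cells was lost in 12 of 17, 8 of them named next and 4 that leave out preparation 1, 2, 3 or 5: its log2 difference was -1.08 at clustering resolution 2, -0.93 with cells thinned to 3000 reads, -4.45 with edgeR, -1.36 with no filter on low values, -0.73 with a pseudocount of 20, -1.20 in sessions B and C alone, -1.09 without cells rich in glial markers, -1.32 with no replicate block, and -1.55 to -1.16 leaving out each preparation in turn, where it still passed without preparation 4 (adjusted p = 0.0346, limma). Gabra2 came past the threshold in NF-like cells with 10 or more cells per mean (1.401) and on the mean of log2(RPM + 5) over cells (1.06), with 0.69 to 1.401 leaving out each preparation, and in NP-like cells at resolution 2 (-1.72), with 2000 or more genes per cell (-1.47) and on the mean of logs (-0.87). Gabrg1 came past it in TH-like cells with 2000 or more genes (-1.36) and on the mean of logs (-0.68), and Grik1 in the Mrgprd split at 50 RPM (2.71). With no replicate block no other member's call changed. The thinned shares that follow are over cells of all sessions and the others over sessions B and C, so 2 choices differ. Alone, Gabra2 with Gabrg1 was in 11.3% of NF-like cells at 1 or more reads and 2.07% after thinning; all 3 genes were in 33.8%, 11.3% at 10 RPM and 0.690% after thinning; Gabra2 with Grik1 was in 39.2% of TH-like cells and 8.00% after thinning. The counts of genes called, with their lowest and highest values over the alternatives, were 1431 (634 to 5309) in NF-like, 841 (297 to 1243) in TH-like, 1133 (439 to 1725) in NP-like and 888 (321 to 3590) in PEP-like cells, 353 (1 to 437) in the Pvalb split, 0 (0 to 22) in the Mrgprd split and 1.17% of genes (0 to 712 genes) for cooling. The cause was not tested. Session A cells held a median of 15421 and 15597 reads in its preparations, where 1 read is worth 64.8 and 64.1 RPM, so absence from a cell there was not detectable below that level.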

Other observations

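Some subunits outside the rule for named genes, picked after their values were seen, are given as values. Gabrd, the delta subunit of extrasynaptic GABA-A receptors, averaged 13.4, 16.1, 0 and 24.9 RPM in PEP-like cells of preparations 1, 3, 4 and 5, against a mean of 0.179 RPM in TH-like cells and 0 in NF-like and NP-like cells. It was under the filter on low values. With no filter it was higher in PEP-like cells by 1.62 ± 0.30 on the log2 scale (adjusted p = 0.0123, limma), higher in 3 of 4 preparations, from reads in 5 of 65 cells. Gabrg3 averaged 29.4, 6.03, 0 and 0 RPM in PEP-like cells of the same preparations (0.88 ± 0.31, adjusted p = 0.168, limma, with no filter), and in preparation 3 it had a read in 5 PEP-like, 11 TH-like and 8 NF-like cells. Gabra5, an extrasynaptic alpha subunit, averaged 6.19 ± 4.39 RPM in NF-like cells, against 0.236 RPM in NP-like, 0.0448 in PEP-like and 0.234 in TH-like cells, and with no filter was higher in NF-like cells by 1.05 ± 0.15 (adjusted p = 7.59e-04, limma).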
